A study of Cricetulus griseus with 8 samples.

Results

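Slc14a1 is the gene of the urea transporter UT-B, a channel-like membrane protein through which urea and some water cross the plasma membrane along their gradient. It is 1 of 26776 named genes in the deposited table and 1 of 345 whose symbol starts with Slc and a digit, as those of most solute carriers do, of which 180 had enough reads to be tested. It was picked by its own difference between the groups compared here, as the solute carrier with the largest log2 fold change, so its difference is described below and carries no test.

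The RNA came from LR73 cells, which engulf dying cells, a line derived from the Chinese hamster CHO line and labelled as fibroblasts and grown in alpha-MEM with serum. Libraries came from 4 cultures of these phagocytes kept alone and from 4 cultures to which apoptotic Jurkat cells, a human T cell leukaemia line, had been added. The Jurkat cells had received UV-C light at 1500 mJ and a further 4 h in culture before they were added. No gene was altered in either group according to the labels, the column names carry a prefix that the labels do not explain, and the length of the co-culture is not given in the sources used here. The 4 libraries per group are biological replicates by the series design, which does not say how the cultures were separated, so p-values measure only the spread between these libraries.

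UT-B is best known from red blood cells, from the endothelium of the descending vasa recta of the kidney, and from bladder urothelium and astrocytes, and on red cells it carries the Kidd blood group antigens. Urea itself is released when arginase cleaves arginine, and the other product, ornithine, feeds polyamine synthesis. The related gene Slc14a2 encodes the UT-A transporters of the kidney tubule, and some aquaporins also pass urea.

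The libraries held 22716373 to 29662144 reads in named genes. Alone library 1 stood apart from the rest of its group, with a median absolute deviation of 0.154 on the log2 scale over genes averaging 100 normalized counts or more, where the other 7 libraries gave 0.0368 to 0.0871. Of 13494 genes tested by limma, 858 were higher and 716 lower with apoptotic cells. Without alone library 1 these counts were 1811 and 1694. Without alone library 3 they were 497 and 386, and leaving out any 1 of the 4 co-culture libraries gave 416 to 482 higher and 356 to 414 lower.

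The labelled cell type was checked against 13 fibroblast markers. Vim, the intermediate filament vimentin, stood at 111964 ± 4744 and 130760 ± 1360 normalized counts alone and with apoptotic cells (SD, n = 4 each). Fn1, fibronectin, stood at 31773 ± 6084 and 34175 ± 1246. The surface marker Thy1 had no reads, and the collagen I genes Col1a1 and Col1a2 were under 10 normalized counts. Among the markers Vim rose and Dcn, the proteoglycan decorin, fell. The line carried only part of the marker set, whose summed level ran from 175678 to 178802 alone and from 197784 to 199339 with apoptotic cells. That sum was mostly Vim. The median log2 fold change of the 9 tested markers was 0.05.

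Slc14a1 was low but counted in every library. The 4 libraries of phagocytes alone held 60, 71, 61 and 79 reads of it, which after division by the authors' size factors came to 57.0, 59.2, 61.9 and 81.7 normalized counts. The 4 co-culture libraries held 142, 135, 146 and 166 reads, or 140, 149, 160 and 162 normalized counts. All 4 co-culture libraries lay above all 4 libraries alone, and the lowest of them was 1.72 times the highest library alone. The library with the highest value alone was library 4, and that library set most of the spread of its group. An arrangement with every co-culture library above every library alone was seen in 11.4% of all tested genes, a figure that says nothing further about a gene picked for its difference.

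**Figure D1:**
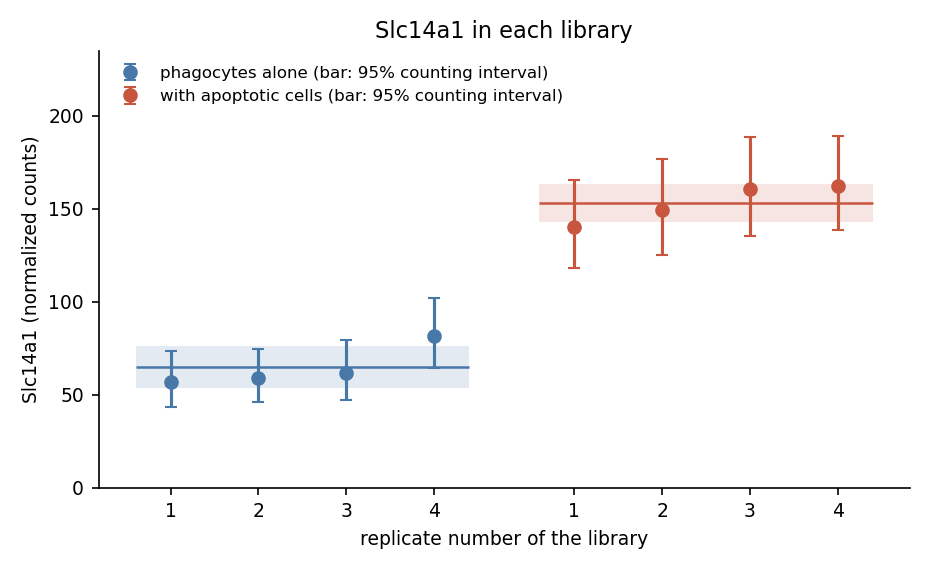
Normalized counts of Slc14a1 (vertical axis) in each of the 8 libraries, by group and replicate number (horizontal axis). Bars are 95% Poisson intervals of the read count, lines are group means and shaded bands are ± 1 SD (n = 4). The highest library alone, at 81.7, lies below the lowest co-culture library, at 140.

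The mean went from 64.9 ± 11.4 to 153 ± 10.3 normalized counts (SD, n = 4 each), a ratio of 2.36. On the log2(normalized count + 1) scale the fold change was 1.24 with an SE of 0.12. In RPM, the reads scaled by the total in named genes without a size factor, the means were 2.62 ± 0.454 and 6.09 ± 0.411. The authors' deposited table lists a log2 fold change of 0.82 with a standard error of 0.10 for the same contrast. The log2 ratio of the means of the same table's columns is 1.24, so the listed value is the smaller of the 2. In bulk RNA, more of the transcript per cell and a larger share of cells that carry it cannot be told apart.

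The error of these values was close to what read counting alone gives. The 95% Poisson interval of a library ran from 43.5 to 73.3 normalized counts in alone library 1 and from 64.7 to 102 in alone library 4, so the intervals of these libraries overlap. In co-culture library 1 it ran from 118 to 165. Counting error alone corresponds to an SD of 7.92 normalized counts among libraries alone, where 11.4 was observed, and of 12.6 among co-cultures, where 10.3 was observed. The coefficient of variation was 17.5% alone and 6.76% with apoptotic cells. Among 557 other tested genes of nearly the same mean normalized count, the median SD of log2 values within groups was 0.158, and that of Slc14a1 was 0.178, with 65.0% of these genes below it. The intervals cover counting error only, since the reads carry no molecular identifiers.

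With single libraries left out, the log2 fold change of Slc14a1 ran from 1.18 to 1.35. The lowest value came without alone library 1 and the highest without alone library 4, the library with the highest level in its group. Under array weights, which let the fit trust some libraries less, it was 1.16, by edgeR 1.24 and by DESeq2 1.24.

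**Figure D2:**
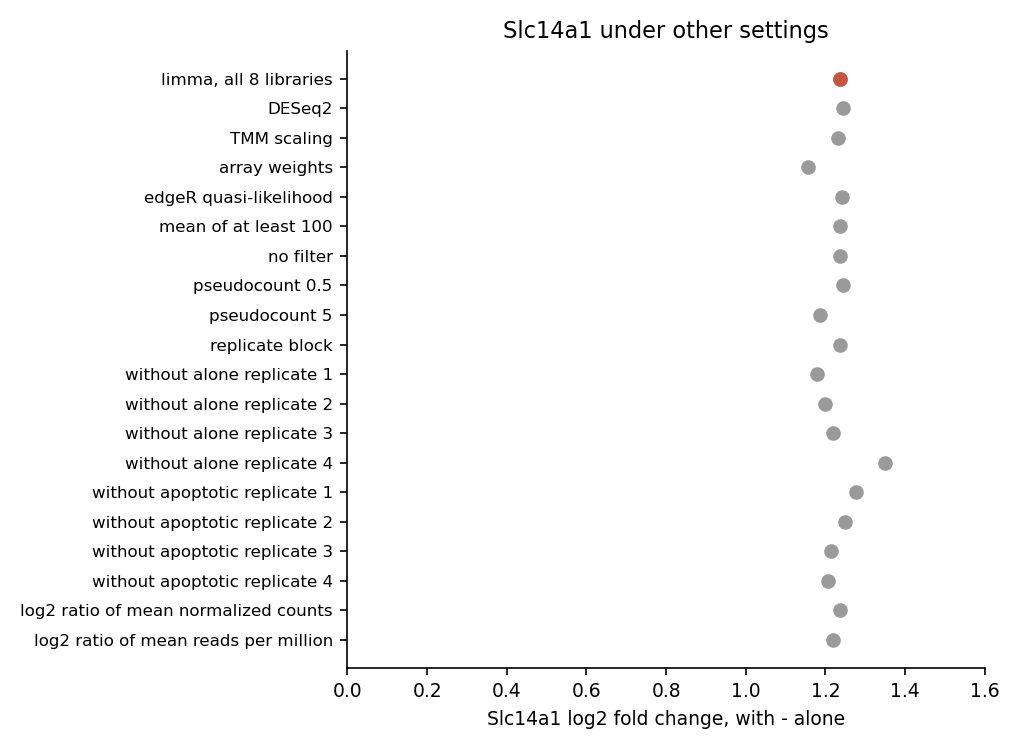
Log2 fold change of Slc14a1, co-culture minus alone (horizontal axis), under each setting (vertical axis), with the value reported in red. All values lie between 1.16 and 1.35.

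Solute carriers are membrane transporters grouped in families by sequence, and Slc14a1 stood apart among them by size of change, as the way it was picked requires. Of the 180 tested, 83 had a log2 fold change above 0, the median was -0.01 and the lowest -0.54. The 180 include 3 symbols of proteins that are no carriers, Slc9a3r1, Slc4a1ap and Slc7a6os, and without them 81 of 177 were above 0. Only 4 reached 0.5, of which Slc14a1 was 1. Next in order was Slc5a4, of the sodium-glucose cotransporter family, at 0.80 (SE 0.23). It was barely above the filter, with 32 reads alone and 55 in the co-cultures over 4 libraries each. Its values were 7.60, 7.50, 7.10 and 8.27 normalized counts alone and lay between 10.8 and 18.8 with apoptotic cells. The glucose transporter Slc2a1 followed at 0.61 (SE 0.05) and the cationic amino acid transporter subunit Slc7a7 at 0.57 (SE 0.07). The bicarbonate cotransporter Slc4a7 (0.40) and the chloride cotransporter Slc12a2 (0.39) came after them. Below these stood the inositol transporter Slc2a13 (0.34), the folate transporter Slc46a1 (0.32) and the nucleoside transporter Slc29a2 (0.31), and the groups overlapped for Slc2a13. Without alone library 1, where it was lowest, the log2 fold change of Slc2a13 was 0.086, and under array weights 0.13. The gap between Slc14a1 and Slc5a4 was 0.44 on the log2 scale.

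**Figure D3:**
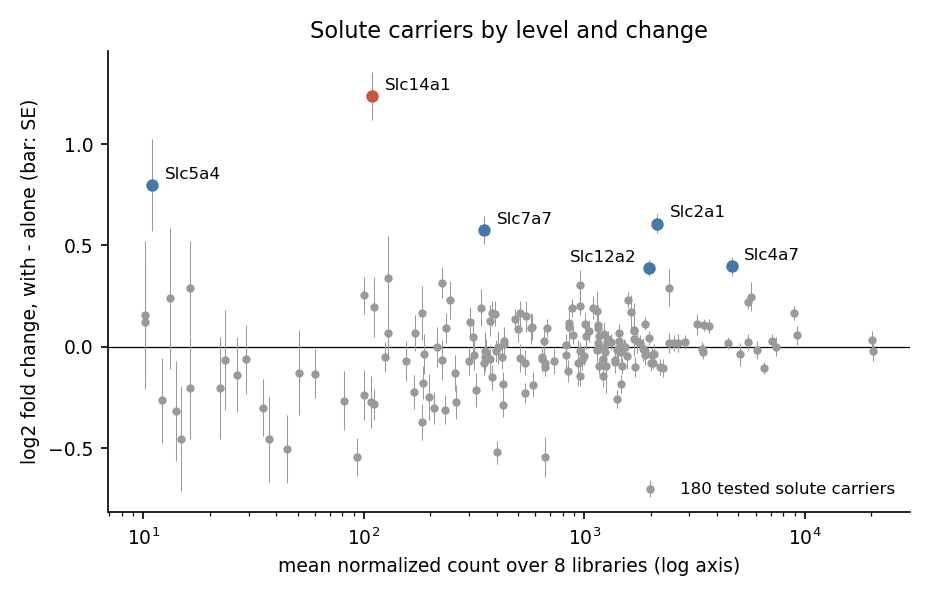
Log2 fold change, co-culture minus alone (vertical axis, bars SE), against mean normalized count over 8 libraries (horizontal log axis) for the 180 tested solute carriers. Slc14a1 (red) lies at 1.24, and the next in order, named in blue, lie between 0.39 and 0.80.

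The place of Slc14a1 at the head of the solute carriers held for tested genes and depended on the filter on low values. With no filter it took place 3, after Slc10a6, a carrier of steroid sulfates, with 7 reads alone and 20 in the co-cultures, and Slc16a11, of the monocarboxylate transporter family, with 14 and 32 reads. By DESeq2, which was run on all genes with a read, 13 solute carriers had a larger log2 fold change, all with a mean of at most 5.79 normalized counts. Over all tested genes, 13 had a larger log2 fold change than Slc14a1, and 1 of these had a mean of at least 100 normalized counts.

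Carriers measured at nearly the same normalized count show the spread between libraries at that depth. Slc9b2, a sodium-proton exchanger, stood at 118 ± 16.6 and 97.4 ± 12.5 normalized counts, and Slc16a6, of the monocarboxylate transporter family, at 104 ± 20.6 and 118 ± 12.5 (SD, n = 4 each). The myo-inositol cotransporter Slc5a3 stood at 109 ± 18.0 and 91.5 ± 5.32. The groups overlapped for these 3 carriers. The endosomal exchanger Slc9a9 went from 122 ± 3.83 to 100 ± 4.93, without overlap. The log2 fold changes of the 4 ran from -0.29 to 0.20. That of Slc14a1, 1.24, had to be larger by the rule that picked it, so the 4 give no measure of its size. Transcript lengths were not used here, so normalized counts of different genes are not set against each other as levels.

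The other genes of urea and water passage were mostly silent in these cells. Of 13 listed genes other than Slc14a1, 12 were in the table and 2 were tested, Aqp1 and Aqp11. The related urea transporter gene Slc14a2 had 5, 4, 2 and 2 reads alone and 3, 5, 3 and 2 reads with apoptotic cells. At this depth no difference could be seen for it. The aquaglyceroporin genes Aqp3 and Aqp7, whose channels pass glycerol and urea as well as water, had 5 and 3 reads in each group. Aqp9, Aqp10, Aqp4 and Aqp5 had none in all 8 libraries together, which allows up to 0.0149 RPM. Aqp2 had 1 read in each group and Aqp6 1 read in all. Aqp8, a channel for water and ammonia, had 8 reads alone against 1, and lies far below the filter.

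Aqp1, the water channel of red cells and many epithelia, was well measured and rose. It stood at 1933, 1985, 1863 and 2190 normalized counts alone and at 2519, 2386, 2336 and 2474 with apoptotic cells. The groups did not overlap, and alone library 4 again had the highest value of its group. The log2 fold change was 0.29 (SE 0.05, limma adjusted p = 0.00594), and the call was kept with every single library left out (adjusted p at most 0.0291 over all settings). Genes that rose by limma at an adjusted p under 0.05 made up 6.36% of all tested genes, genes that fell 5.31%, and both together 11.7%. Aqp11, an intracellular aquaporin, stood at 40.1 ± 8.30 and 30.7 ± 2.87 normalized counts (log2 change -0.36, SE 0.17, limma adjusted p = 0.2) and did not pass.

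Of the urea cycle enzymes Cps1, Otc, Ass1 and Asl and the arginases Arg1 and Arg2, Asl alone had enough reads to be tested. Asl, argininosuccinate lyase, which releases arginine, stood at 18.4 ± 3.65 and 14.2 ± 3.69 normalized counts alone and with apoptotic cells (log2 change -0.37, SE 0.23, limma adjusted p = 0.336) and did not pass. Arg1, the cytosolic arginase, had 1 read alone and 4 in the co-cultures, and Arg2, the mitochondrial arginase, had 5 and 10. The 5 reads of Arg2 alone lay in libraries 1 and 2, with 4 and 1, and the co-cultures had 2, 1, 5 and 2. Otc and Cps1, which catalyse the mitochondrial steps of the urea cycle, were below 10 normalized counts as well. Ass1, argininosuccinate synthase, had no reads in the 4 libraries alone and 1, 3, 3 and 5 reads in the co-cultures. Against the 3 reads that a count of 0 allows over the group alone, the 12 reads in all are 4.32-fold higher in RPM. The counting error of the 12 is left out of that ratio, so it is no lower bound.

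Of the 27 genes listed for the urea cycle and arginine, all were in the table, 13 were tested, 1 rose, none fell and 12 did not pass. The 1 that rose is 7.69% of those tested, near the 6.36% of all tested genes. The median log2 fold change of the 13 was 0.02, against 0.001 over all genes tested. Slc7a7, a subunit of the exchanger y+LAT1 that moves arginine and other cationic amino acids out of cells in exchange for neutral ones, was the member that rose. It went from 273, 264, 282 and 307 normalized counts alone to 416, 410, 393 and 461 with apoptotic cells, without overlap (log2 change 0.57, SE 0.07, limma adjusted p = 0.00064). Its partner Slc3a2, the heavy chain of several such exchangers, stood at 5465 ± 289 and 5546 ± 129 normalized counts (0.02, SE 0.04, adjusted p = 0.757 by limma). Slc25a13, the mitochondrial aspartate-glutamate carrier, stood at 1944 ± 48.5 and 2000 ± 39.1 (0.04, SE 0.03, limma adjusted p = 0.481). Without alone library 1 the called members were 3, with Aldh18a1 and the arginine importer Slc7a1 added, where 26% of all genes tested were called. With all libraries both were lower on average with apoptotic cells and did not pass. Aldh18a1 was at -0.69 (SE 0.25, limma adjusted p = 0.102) and Slc7a1 at -0.10 (SE 0.13, limma adjusted p = 0.664). Alone library 1 held 933 normalized counts of Slc7a1, where the other libraries alone held 1294 to 1571.

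Polyamine metabolism starts from ornithine. Of 19 listed genes 17 were in the table and 15 were tested, of which 1 rose, 2 fell and 12 did not pass, beside 6.36% of all tested genes that rose and 5.31% that fell. The median log2 fold change was 0.05. Odc1, ornithine decarboxylase, which makes putrescine from ornithine, stood at 3803, 3362, 3437 and 3647 normalized counts alone and at 4211, 4037, 4228 and 4352 with apoptotic cells. The groups did not overlap (log2 change 0.24, SE 0.04, limma adjusted p = 0.00683). Amd1, S-adenosylmethionine decarboxylase, which supplies the aminopropyl groups of spermidine and spermine, fell from 5092, 4670, 4785 and 4896 to 3242, 3269, 3242 and 3324 normalized counts. Its fall was the largest change in the list, at -0.57 (SE 0.03, limma adjusted p = 7.5e-06), and the co-cultures lay far below all libraries alone. Azin1, the antizyme inhibitor that protects ornithine decarboxylase from breakdown, fell by 0.11 in log2 units (SE 0.03, limma adjusted p = 0.0352). That call was lost on leaving out alone library 3 or 4, or a single co-culture library, with limma adjusted p-values of 0.0615 to 0.119. The call was also lost with no filter (limma adjusted p = 0.0648) and with the replicate block (limma adjusted p = 0.0902). Eif5a, the translation factor that receives a hypusine made from spermidine, stood at 50986 ± 3789 and 50629.5 ± 1076 normalized counts (limma adjusted p = 0.935). Mtap, which salvages methylthioadenosine from polyamine synthesis, stood at 10140 ± 679 and 10662 ± 88.4 (limma adjusted p = 0.31). Without alone library 1, 12 members of the list were called, where 26% of all genes tested were called.

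In the response to hypertonic stress cells gather organic osmolytes. Of 17 listed genes 15 were in the table and 11 were tested, none rose, 1 fell and 10 did not pass, with a median log2 fold change of -0.02. The called share of 9.09% is near the 11.7% of all tested genes. Nfat5, the transcription factor that drives this response, stood at 4218, 7031, 5825 and 6052 normalized counts alone, so that the libraries alone spanned all co-culture values, which lay between 5562 and 6294 (log2 change 0.07, SE 0.12, limma adjusted p = 0.74). Its sign turned without alone library 1, the lowest library, to -0.07 (limma adjusted p = 0.266). Akr1b1, aldose reductase, which makes sorbitol, stood at 6823 ± 490 and 6717 ± 63.6 normalized counts (limma adjusted p = 0.817), and the amino acid transporter Slc38a2 at 6115 ± 351 and 6036 ± 145 (limma adjusted p = 0.83). The betaine transporter Slc6a12 and Hspa1a had no reads. Gdpd5, a phosphodiesterase of the osmolyte glycerophosphocholine, was the member that fell, from 334, 350, 339 and 376 to 272, 265, 266 and 250 normalized counts. The groups did not overlap (log2 change -0.41, SE 0.06, limma adjusted p = 0.00204). Without alone library 1 the called members were 3, with the taurine transporter Slc6a6 and Slc5a3 added, where 26% of all genes tested were called. These went opposite ways. With all libraries Slc6a6 was at 0.25 (SE 0.07, limma adjusted p = 0.0549) and Slc5a3 at -0.24 (SE 0.12, limma adjusted p = 0.246). Without alone library 2 the called members were Slc6a6 and Gdpd5, where 735 genes rose and 596 fell over all genes.

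**Figure D4:**
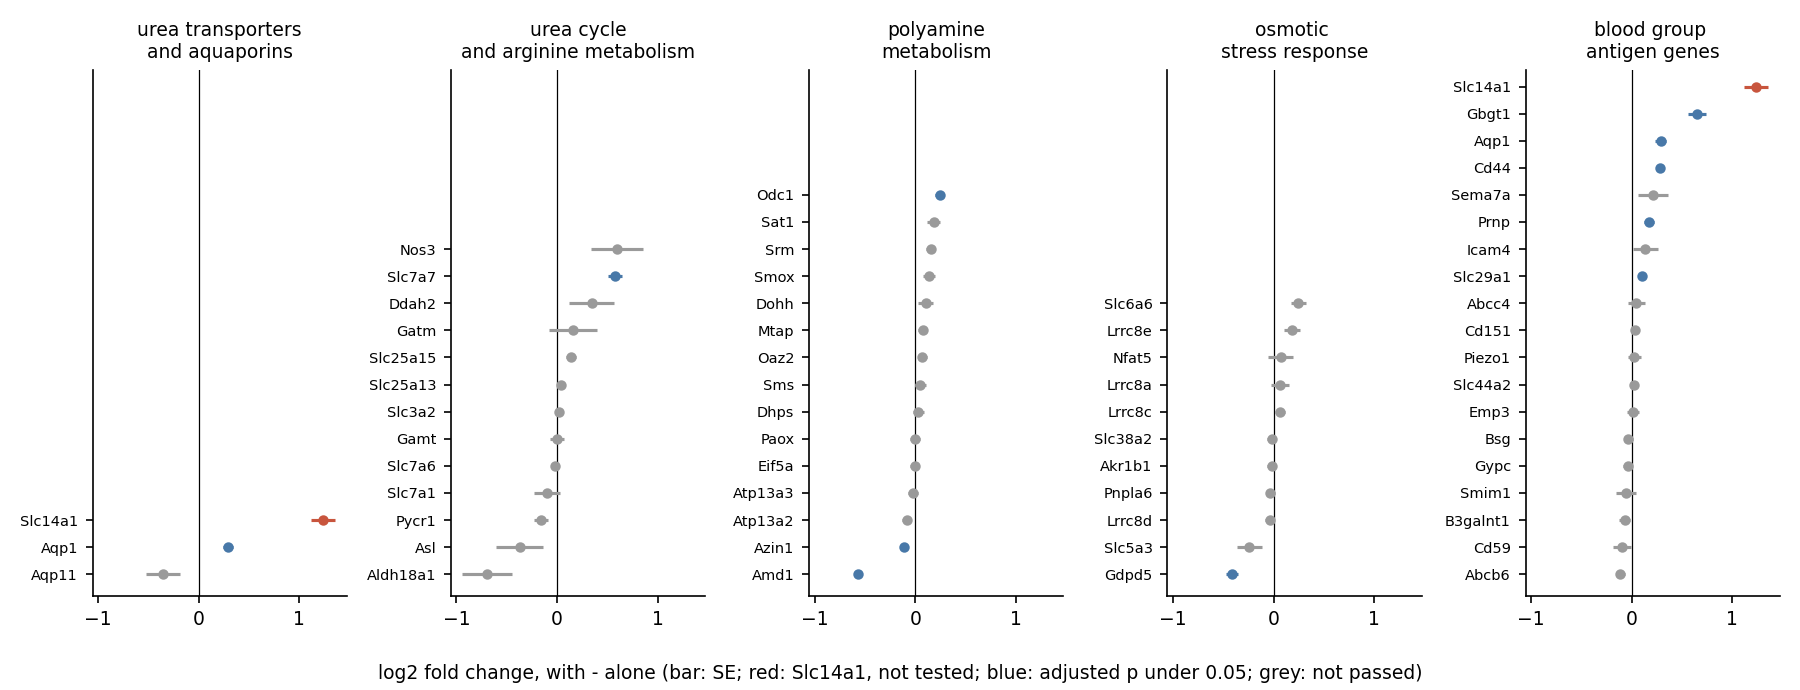
Log2 fold change, co-culture minus alone (horizontal axis, bars SE), of the tested genes (vertical axis) of 5 lists. Slc14a1 (red) is shown without a test at 1.24, genes with a limma adjusted p under 0.05 are blue and the others grey. The furthest fall among the blue genes is that of Amd1 at -0.57, and the grey Aldh18a1 lies lower, at -0.69.

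Slc14a1 belongs to the genes behind human blood group antigens, which encode red cell membrane proteins or the enzymes that build surface glycans. Of the 35 other listed genes 32 were in the table and 18 were tested, of which 5 rose, none fell and 13 did not pass. The 5 are 27.8% of the tested members, beside 6.36% of all tested genes, and the median log2 fold change was 0.03. Gbgt1, which completes the Forssman glycolipid, rose from 122, 152, 124 and 139 to 225, 194, 213 and 210 normalized counts (log2 change 0.65, SE 0.09, limma adjusted p = 0.00145). Cd44, the hyaluronan receptor that carries the Indian antigens, rose from 20646 ± 496 to 25024 ± 355 normalized counts (SD, n = 4 each, log2 change 0.28, SE 0.03, limma adjusted p = 0.000265). Aqp1, described above, carries the Colton antigens. Prnp, the prion protein (0.17, SE 0.05, limma adjusted p = 0.0423), and the nucleoside transporter Slc29a1 (0.11, SE 0.03, limma adjusted p = 0.0458) were near the threshold. Both lost their calls on leaving out alone library 2, 3 or 4, or a single co-culture library, with limma adjusted p-values of 0.0617 to 0.137. That left 3 called members in each of these settings. Over all genes, 735 rose and 596 fell by limma without alone library 2, and 497 and 386 without alone library 3. With all libraries these counts were 858 and 716. Bsg, basigin, stood at 21238 ± 1209 and 20723 ± 545 normalized counts (limma adjusted p = 0.637) and the tetraspanin Cd151 at 6608 ± 224 and 6767 ± 165 (limma adjusted p = 0.553). The red cell genes Slc4a1, Rhag, Kel and Ackr1 had no reads.

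Cell types in which UT-B is known were looked for through their own markers. Of 10 erythroid markers in the table, 8 were below 10 normalized counts and Slc4a1, Gata1, Rhag and Hbb had no reads. The summed erythroid level was 122 to 171 normalized counts alone and 137 to 181 with apoptotic cells. Of 9 endothelial markers 8 were below 10, Cldn5 had no reads, and the sum was 164 to 195 alone and 158 to 201 with apoptotic cells. Of 9 urothelial and epithelial markers 6 were below 10, with Upk1b, Krt18 and Krt20 at 0, and the sum was 369 to 411 alone and 325 to 346 with apoptotic cells. Of 8 astrocyte markers 5 were below 10 and Aqp4, Aldh1l1 and Gjb6 had no reads. Its sum of 26147 to 28237 alone and 33050 to 34387 with apoptotic cells was mostly that of Gja1, connexin 43, which fibroblasts express too.

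T cell markers were looked for because Jurkat RNA could be present in the co-cultures. All 17 of those used were in the table, and their summed level was 900 to 924 normalized counts alone and 863 to 887 with apoptotic cells. Cd28, Lat and Tcf7, which LR73 cells alone carried as well, made up 98.9% of it. Of these Cd28, a costimulatory receptor, fell from 28.3 ± 3.87 to 17.6 ± 3.05 normalized counts without overlap (log2 change -0.67, SE 0.18, limma adjusted p = 0.0385), and Lat and Tcf7 did not pass. Of the defining receptor genes, Cd3d and Cd3g had no reads, Cd3e had 0 alone and 2 with apoptotic cells, and Cd247 had 1 and 4. Cd2 had no reads. The 14 other markers, set aside after their values were seen, held 0 to 5 reads per library alone and 13 to 20 with apoptotic cells. In all they held 10 against 69 reads, with 10 markers higher and 1 lower. Lef1 gave the most of the 69, with 24 reads against 3 alone. These traces moved with the co-cultures, as did the few reads of Ass1, and their part in either difference was not tested.

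The genes whose pattern was most like that of Slc14a1 were ranked by Pearson's r on log2(normalized count + 1) over the 8 libraries, among 10063 tested genes with a symbol that is no placeholder. These r are descriptions, since the points share the libraries and the libraries fall into 2 groups, so that r mainly reflects the difference between groups. An r of at least 0.9 was reached by 448 genes (4.45%), and a negative r of that size or beyond by 308. The 10 highest lay between 0.984 and 0.993. They were the sialidase Neu2, the MAP kinase phosphatase Dusp4, the deubiquitinase Usp10, the centromere guardian Sgol2, the peptide ligand Apln, the membrane-actin linker Ezr, the collagen VI chains Col6a1 and Col6a2, the corepressor Ctbp2 and Cd44. Neu2 was the nearest, with an r of 0.993 and of at least 0.992 with any 1 library left out. It held 599, 586, 615 and 667 normalized counts alone and 920, 918, 917 and 929 with apoptotic cells, a log2 fold change of 0.58. The changes of the 10 were all smaller than that of Slc14a1, from 0.13 for Ctbp2 to 0.58 for Neu2 and Col6a1.

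**Figure D5:**
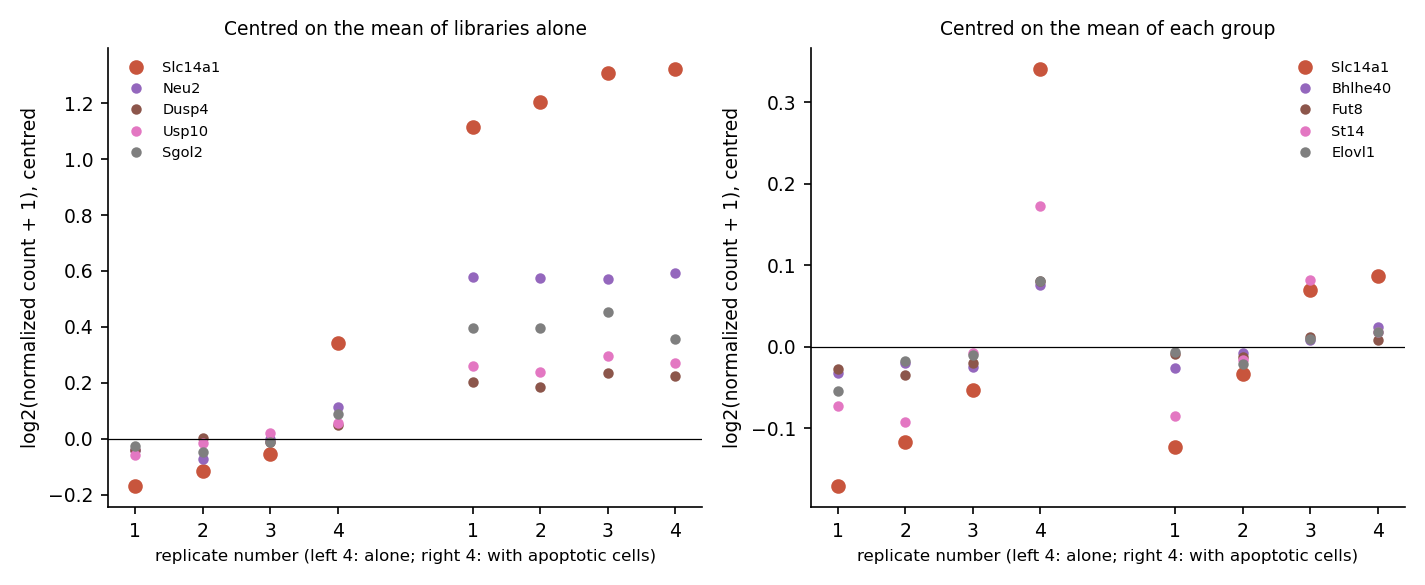
Log2(normalized count + 1) per library, less the mean of the libraries alone (left) or of each group (right), for Slc14a1 (red) and the 4 genes most like it by each measure, with replicate numbers on the horizontal axis. Alone library 4 lies highest for Slc14a1 among the libraries alone in both panels.

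A second measure took the group mean off each value, so that only the variation among libraries of a group counted. By this measure 10 genes (0.0994%) reached an r of at least 0.9. The 5 highest were the circadian repressor Bhlhe40 (0.984), the core fucosyltransferase Fut8 (0.960), the membrane protease St14 (0.956), the fatty acid elongase Elovl1 (0.951) and Dpy19l2 (0.927). None of the 5 was among the 10 nearest over all libraries. Their group difference was small, from -0.10 for Fut8 and St14 to 0.06 for Elovl1 on the log2 scale. Bhlhe40 held 1155 normalized counts in alone library 4 and 1072 to 1081 in the other libraries alone. The likeness rested in part on single libraries, since with 1 library left out r fell as low as 0.909 for Bhlhe40, 0.811 for Fut8, 0.868 for St14, 0.737 for Elovl1 and 0.676 for Dpy19l2.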

How the data were processed

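The authors deposited 1 table, whose values are a signal, gene counts normalized by a size factor for each library. All values (100%) were whole multiples of 1 read within 0.01 reads, so whole reads were recovered. STAR, featureCounts, FastQC and DESeq2 were used, per the submitters' processing notes. Not given in the sources used here are the genome build, the annotation, the strand setting and the handling of reads that match both species. Human reads may therefore be counted under hamster genes. The deposited table's log2 fold change and standard error are quoted for Slc14a1 only. Reads without a gene name (0.14 to 0.176% per library) were left out.

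Genes averaging 10 normalized counts or more were fitted with limma 3.58.1 (R 4.3.3, trend) on log2(normalized count + 1), on group alone, with p-values adjusted over all genes (Benjamini-Hochberg) and a threshold of 0.05. A fold change on this scale understates changes of low genes. Alternatives were edgeR 4.0.16 and DESeq2 1.42.0 on recovered reads, TMM scaling, other pseudocounts and filters, array weights, a replicate block and leaving out each library. The fit was tested on simulated data. Figures used matplotlib 3.10.9.

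Slc14a1, the lists and the rule for named genes were chosen with earlier results of these data known. Named genes were all urea transporter and aquaporin genes with reads, called members and the 2 uncalled members of highest normalized count in 4 further lists, Arg1, Arg2, Ass1, Odc1, Nfat5, the next 8 solute carriers by change and the 4 nearest by normalized count, and the nearest genes by Pearson's r. Other genes named were chosen after their values were seen. A list gene absent under its symbol was looked up by the LOC number that RefSeq pairs with it. The RefSeq table of the species has no row with the symbol Slc14a1, so its position, neighbours and sequence were not analysed here. 1 T cell marker of the list is not reported here.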

Additional observations from a re-analysis of the deposited data

Results flagged for a closer look

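Values were examined for a library far from the other 3 of its group, by its gap to the nearest library over the range of the group. Among 92 groups of values of the named genes 4 stood out, no more than the 1 in 20 or so that chance gives. In alone library 4, Bhlhe40 held 1155 normalized counts (others 1072 to 1081), Fut8 2240 (others 2068 to 2089) and Dpy19l2 229 (others 197 to 200). These 3 genes were chosen for their likeness to Slc14a1 within groups, and Slc14a1 was itself highest in that library, though its gap there stayed below the limit. In co-culture library 1, Dpy19l2 held 196 normalized counts (others 211 to 212).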

How the results depend on the processing

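The log2 fold change of Slc14a1 stayed within 1 SD of its library values in all 19 settings tried (1.16 to 1.35), 2 of which, the ratios of mean normalized counts and of mean RPM, were chosen after seeing the data. Its place among solute carriers was 3 with no filter and 14 by DESeq2, where genes of a few reads enter, and 1 in the other settings. Genes called over all genes numbered 1804 higher and 1674 lower with array weights, 498 and 400 with the replicate block, and, with 1 library left out, 416 to 1811 higher and 356 to 1694 lower. Same-numbered libraries did not deviate together (r from -0.09 to 0.07), so the numbers were not taken as pairs, and the block left 3 blood group genes called.

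Called members other than Slc14a1 moved as follows. With no filter, urea transporters and aquaporins had 2 (Aqp8 added, -1.25, limma adjusted p = 0.0497). Urea cycle and arginine metabolism had 2 (Ass1 added, 1.94, limma adjusted p = 0.00706, from 12 reads). Blood group antigen genes had 3 with no filter, and also 3 under TMM scaling. Array weights gave 4 for the urea cycle and arginine, 10 for polyamines and 3 for osmotic stress, and DESeq2 gave 2 for osmotic stress. Over left-out libraries the counts were 1 to 1 for urea transporters and aquaporins, 1 to 3 for the urea cycle and arginine, 2 to 12 for polyamines, 1 to 3 for osmotic stress and 3 to 6 for blood groups. Uncalled genes near 0 changed sign: under array weights Eif5a to 0.034, Akr1b1 to 0.010, Nfat5 to -0.028 and Dpy19l2 to -0.013. Over left-out libraries Eif5a ran from -0.036 to 0.043, Akr1b1 from -0.058 to 0.025, Bsg from -0.056 to 0.0046, Nfat5 from -0.071 to 0.17, Slc38a2 from -0.058 to 0.0078 and Dpy19l2 from -0.011 to 0.061. The cause was not tested. Genomic neighbours were not run. With 60 to 166 reads per library, counting error limits the precision of Slc14a1. Genes averaging under 10 normalized counts were left out of the main fit and entered only the settings with other filters.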
